A study of Oryctolagus cuniculus with 49 samples.

Results

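Axon guidance ligands and receptors were followed in the iris and ciliary body of New Zealand white rabbits, with and without lensectomy and insertion of an intraocular lens. The members were the gene symbols of the semaphorin, plexin, neuropilin, ephrin, Eph, SLIT, ROBO, netrin and UNC5 families and DCC, picked by name and not by value. They numbered 57 of 12967 gene symbols, from 71 transcripts. In the RefSeq annotation of assembly mOryCun1.1, 73 protein-coding symbols fit the same names, and the other 16 were not analysed here. The members were 33 ligands (18 semaphorins, 4 ephrin-A and 3 ephrin-B genes, 3 SLIT and 5 netrin genes) and 23 receptors (9 plexins, 2 neuropilins, 3 EphA and 4 EphB receptors, 3 ROBO genes and 2 UNC5 genes). The remaining symbol, UNC50, fits the name pattern but encodes an inner nuclear membrane protein and no netrin receptor. It was called in none of the 6 comparisons below.

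Total RNA of iris and ciliary body tissue was sequenced in 26 libraries. They came from unoperated eyes at 5 weeks (7 libraries) and at 6 months (7 libraries), and from operated eyes at 5 weeks (3), 6.5 weeks (3) and 6 months (6). The labels give no genotype, no interval between surgery and sampling, and no unoperated eyes of 6.5 weeks. For that group surgery and growth cannot be told apart. The titles give each of the 26 libraries a number of its own, 23 of them shared with a cornea library, but the labels do not say that these numbers name animals, so p-values measure the spread between these libraries.

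Axon guidance proteins steer growing axons by attraction or repulsion and are reused in vessels, epithelia and immune cells. Secreted class 3 semaphorins act through neuropilins and plexin-A receptors, membrane-bound semaphorins act through plexins directly, and SEMA3E can bind PLXND1 without a neuropilin. Ephrins and Eph receptors sit on facing cells and signal in both directions. SLIT proteins repel through ROBO receptors, and netrins attract or repel through DCC and UNC5 receptors. The iris and ciliary body carry dense sensory, sympathetic and parasympathetic nerve endings beside muscle, vessels and a double-layered epithelium, and each of these tissues is known to make some of these proteins.

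Values are FPKM, sequenced fragments scaled to transcript length and to the library's mapped fragments, summed over the transcripts of a symbol. They are scaled by length, so levels of different genes can be set side by side. A member is called higher or lower where limma, a linear model fitted over all genes on log2(FPKM + 0.5), gave a Benjamini-Hochberg adjusted p under 0.05. Fold changes are on that scale with their standard error, and understate the change of low genes. The table lists a transcript only if every library of a set exceeded 1 FPKM, for 1 or more of 4 sets, namely unoperated 5-week, operated juvenile, unoperated 6-month and operated 6-month eyes. By FPKM summed per symbol, 50 members passed in all 4 sets, 4 in 3 sets (EPHB1, PLXNB3, SEMA5B and UNC5C) and 3 in 2 sets (EPHA1, ROBO2 and SEMA4A). For the 10 members with more than 1 transcript, the sets through which each transcript passed were not counted. EPHA1 passed through the operated sets alone, so its listing itself depended on its level there. Its surgery contrasts are therefore given as a description with no test, and counts are also given without it.

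The tissue label was checked against marker genes. Ciliary and iris epithelium (11 of 12 markers measured) summed to 1348 to 5647 FPKM per library and pigment cell markers (8 of 8) to 1242 to 3527 FPKM. The lens crystallin CRYAA exceeded 1000 FPKM in 8 of 26 libraries, of which 5 were unoperated, and the fit was repeated without those 8. In whole tissue, fewer cells of a type and less RNA per cell cannot be told apart.

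NRP2, a co-receptor for class 3 semaphorins and for vascular endothelial growth factors, had the highest level of the members at 84.2 FPKM on average over the 26 libraries. It was followed by the plexins PLXNB2 (64.2 FPKM) and PLXND1 (55.6 FPKM) and by the ligands SEMA3F (62.3 FPKM) and NTN4 (53.1 FPKM), the latter a netrin of basement membranes. Among the ligands the mean level ranged from 1.79 FPKM (SEMA5B) to 62.3 FPKM, with a median of 12.2 FPKM. Receptors ran from 1.26 FPKM (PLXNB3) to 84.2 FPKM, with a median of 6.44 FPKM. Above 20 FPKM stood 16 of the 55 members given a mean here, and 15 were below 5 FPKM. The ephrin-B ligands EFNB1 and EFNB2 (31.99 and 34.1 FPKM) stood above every EphB receptor, of which EPHB4 was the highest at 17.5 FPKM. The third ephrin-B ligand, EFNB3 (4.02 FPKM), stood below EPHB4. In the EphA arm EFNA1 and EFNA5 (19.98 and 16.9 FPKM) were above the receptors EPHA2, EPHA4 and EPHA1 (4.64, 3.4 and 1.74 FPKM), while EFNA3 and EFNA4 (3.1 and 3.83 FPKM) were below EPHA2. SEMA4A and ROBO2 were each listed at 0 in 3 libraries and between 2.06 and 10.2 FPKM in the others, and they are left out of these means, medians and counts.

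**Figure D1:**
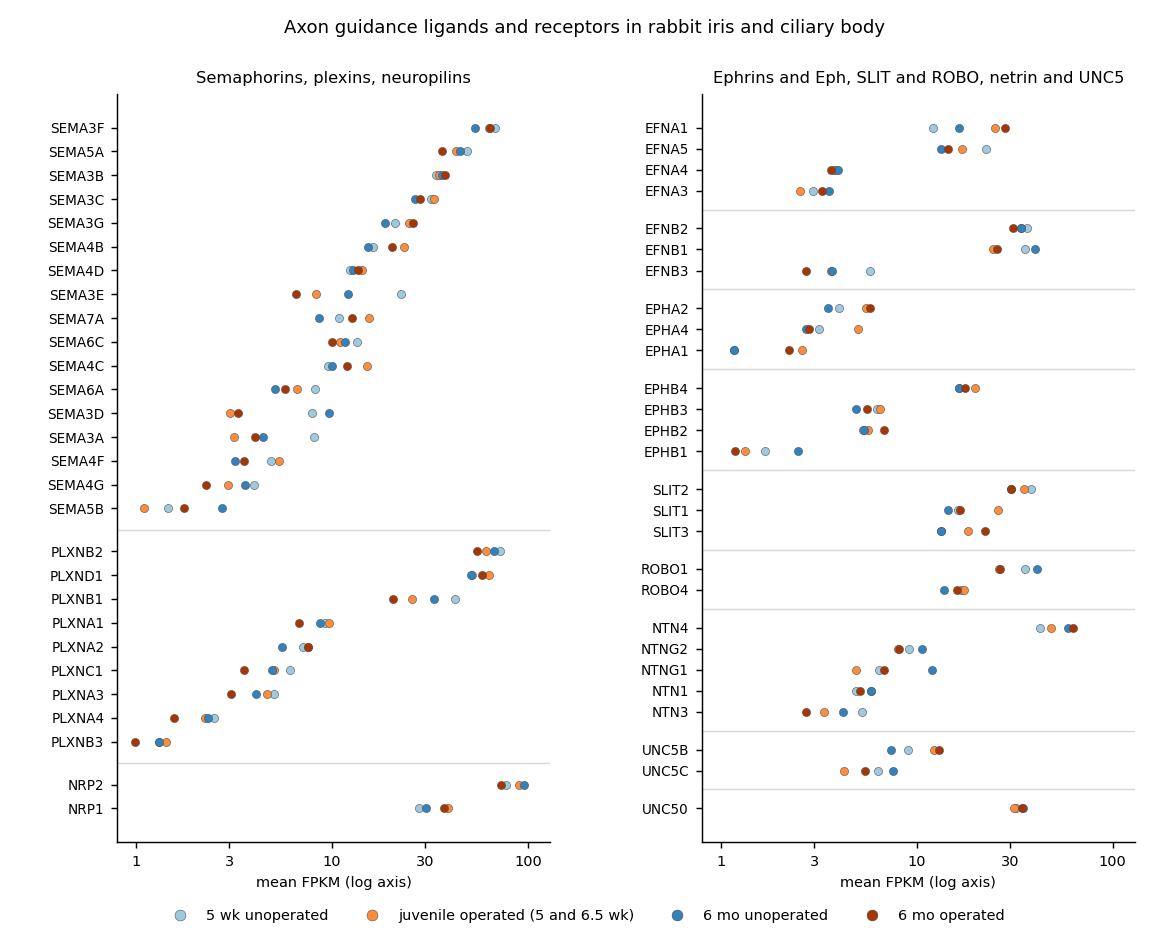
Mean FPKM (log axis) of 55 of the members in unoperated 5-week, operated juvenile, unoperated 6-month and operated 6-month eyes, ordered by family and level. SEMA4A and ROBO2, listed at 0 in 3 libraries each, are left out. Levels span from about 1 FPKM for PLXNB3 to 84.2 FPKM for NRP2 over all libraries, and for most members the 4 points lie close together against that span.

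Operated and unoperated eyes were compared at each age. At 6 months 13 members were higher and 19 lower in operated eyes (12 higher without EPHA1). Over all 12967 genes 16.0% were called higher and 30.1% lower, 46.1% in all, and the members' median log2 fold change was -0.11, the same as that of all genes. In juveniles, operated eyes of 5 and 6.5 weeks together against unoperated eyes of 5 weeks, 12 members were higher (11 without EPHA1) and 13 lower, beside 16.5% higher, 20.8% lower and 37.3% in all among all genes. There the members' median was -0.00 and that of all genes -0.06. The direction split depended on the scaling between libraries. With the FPKM of each library brought to 1 common total (equal totals below) the counts were 8 higher and 23 lower at 6 months and 10 higher and 20 lower in juveniles, while 11.1% of all genes were higher and 47.2% lower at 6 months and 11.9% and 36% in juveniles, and the median of all genes moved to -0.24 and -0.18. With median-ratio scaling they were 16 higher and 12 lower at 6 months, where the median of all genes was -0.01, and 13 against 12 in juveniles. Of all genes 21.5% were then higher and 20.2% lower at 6 months, and 18.3% and 18.1% in juveniles.

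The calls at both ages included 8 members that were higher (EFNA1, EPHA2, NRP1, PLXND1, SEMA4B, SEMA4C, SEMA7A and UNC5B), EPHA1 not counted, and 9 that were lower (EFNB1, EFNB3, NTN3, PLXNB1, PLXNB2, ROBO1, SEMA3D, SEMA3E and SEMA6C). No member was called in opposite directions. At 6 months 14 further members were called, in juveniles 7 further ones, and 18 at neither age. Of all genes 46.1% were called at 6 months and 37.3% in juveniles. How many of all genes were called at both ages, or in which directions, was not counted, so the agreement may not be particular to the members. In every processing setting and without any 1 library, 18 of 31 calls at 6 months and 13 of 24 in juveniles held, EPHA1 not counted. At 6 months the libraries of both groups did not overlap for 6 higher and 8 lower members, beside 8.12% and 12.8% of all genes. In juveniles this was so for 5 higher and 5 lower members, beside 7.82% and 7.87% of all genes. EPHA1 is left out of both counts.

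**Figure D2:**
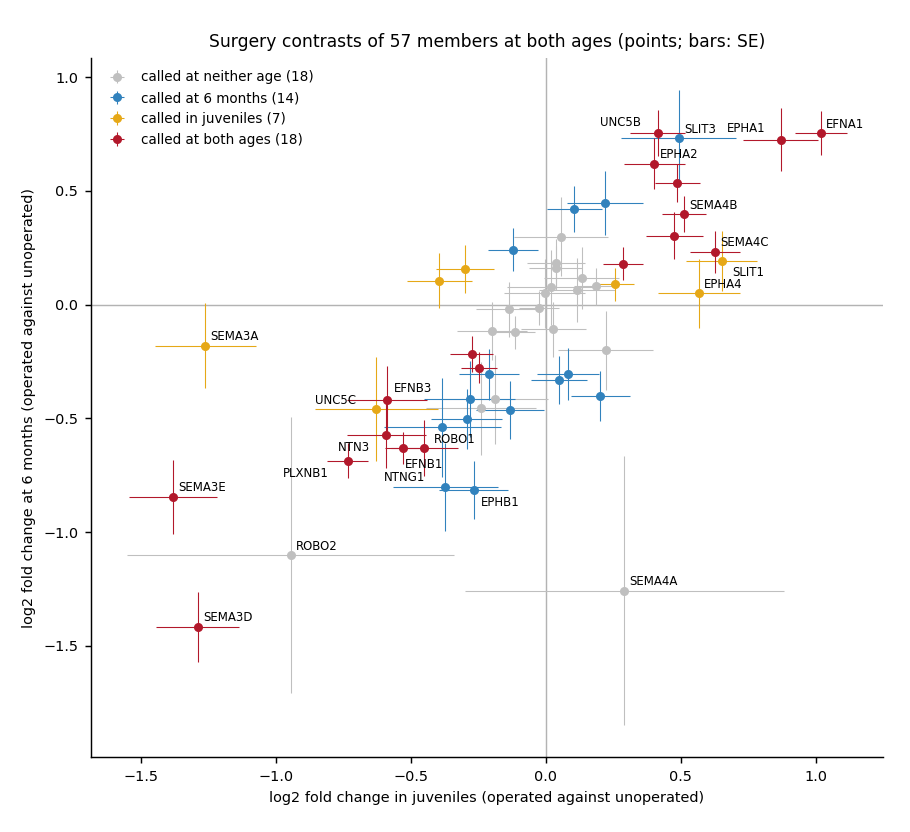
Log2 fold changes (FPKM + 0.5) of operated against unoperated eyes for the 57 members, in juveniles (x axis) and at 6 months (y axis), with standard errors as bars. Colour marks the age at which a member was called. SEMA3D and SEMA3E lie at the lower left, EFNA1 at the upper right beside EPHA1, whose listing depended on its operated level, and SEMA3A left of the axis near 0 at 6 months. The wide bars of ROBO2 and SEMA4A belong to genes listed at 0 in 3 libraries each.

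EFNA1 and the receptor EPHA2 rose with surgery at both ages, and the ephrin-B ligands EFNB1 and EFNB3 fell. EFNA1, a membrane-anchored ligand of EphA receptors that inflammatory cytokines are known to induce in endothelium, spanned 10.0 to 14.8 FPKM (median 12.1) in unoperated 5-week eyes, against 27.4, 23.04 and 23.4 FPKM at 5 weeks and 27.4, 23.3 and 25.8 FPKM at 6.5 weeks in operated juveniles. At 6 months it spanned 14.1 to 18.96 FPKM (median 16.5) in unoperated and 24.2 to 37.8 FPKM (median 26.6) in operated eyes. Operated libraries were above unoperated ones at both ages with no overlap. The log2 fold change was 1.02 ± 0.10 in juveniles (adjusted p = 1.06e-08) and 0.75 ± 0.10 at 6 months (adjusted p = 9.15e-07). EFNA5 (0.11 ± 0.12 at 6 months, adjusted p = 0.499) was lower in juveniles by -0.39 ± 0.12 (adjusted p = 0.0133). That call was lost with operated 5-week libraries alone (-0.20, adjusted p = 0.36), without the late-numbered 5-week libraries (-0.31, adjusted p = 0.098) and without the libraries high in CRYAA (adjusted p = 0.055). EFNA3 and EFNA4 were called at neither age.

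Of the EphA receptors, EPHA1 was near the 1 FPKM limit of the table in unoperated eyes, at 0.96 to 1.44 FPKM (median 1.12) at 5 weeks and 0.8 to 1.49 FPKM (median 1.14) at 6 months. Operated juveniles had 3.24, 2.45 and 2.27 FPKM at 5 weeks and 1.53, 2.42 and 3.75 FPKM at 6.5 weeks, and operated 6-month eyes 2.03 to 2.54 FPKM (median 2.21). The log2 difference was 0.87 ± 0.14 in juveniles and 0.73 ± 0.14 at 6 months. It is given without a test, because a level above 1 FPKM in operated eyes is what put EPHA1 in the table. EPHA2, a receptor of EFNA1 in epithelia, vessels and lens, spanned 3.52 to 4.42 FPKM (median 4.08) in unoperated 5-week eyes and 3.33 to 3.84 FPKM (median 3.5) in unoperated 6-month eyes. Its operated values were 7.26, 5.28 and 4.46 FPKM at 5 weeks and 6.21, 5.28 and 4.58 FPKM at 6.5 weeks, and 4.56 to 7.5 FPKM (median 5.16) at 6 months. Again the operated libraries were all higher, by 0.40 ± 0.11 in juveniles (adjusted p = 0.00676) and 0.62 ± 0.11 at 6 months (adjusted p = 9.48e-05). The 3 highest EPHA2 values, 7.26, 7.34 and 7.5 FPKM, were those of the 3 operated libraries above 1000 FPKM of CRYAA. The 4 other operated 6-month libraries held 4.56 to 5.17 FPKM and the 6 other unoperated ones 3.33 to 3.63 FPKM, still with no overlap.

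EPHA4, which binds ephrins of both classes, was at 2.77 to 3.53 FPKM (median 3.19) in unoperated 5-week eyes and at 4.07, 6.5 and 4.97 FPKM at 5 weeks and 5.58, 5.73 and 3.29 FPKM at 6.5 weeks in operated juveniles. Of the operated libraries 1 of 6.5 weeks lay inside the unoperated range and the other 5 above it. The contrast was 0.57 ± 0.15 (adjusted p = 0.00475). At 6 months unoperated eyes spanned 1.85 to 3.74 FPKM (median 2.52) and operated eyes 2.06 to 3.57 FPKM (median 2.8), with full overlap (0.05 ± 0.15, adjusted p = 0.808). The difference of the surgery contrasts between ages was -0.52 ± 0.22 with an adjusted p of 0.296.

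EFNB1, a transmembrane ligand of EphB receptors, moved the other way. Unoperated eyes had 33.5 to 38.9 FPKM (median 35.4) at 5 weeks and 36.9 to 43.5 FPKM (median 40.4) at 6 months. Operated eyes had 24.7, 24.6 and 24.8 FPKM at 5 weeks and 25.4, 25.9 and 21.8 FPKM at 6.5 weeks, and 23.2 to 32.8 FPKM (median 24.8) at 6 months. Every operated library was below every unoperated one of its age, by -0.53 ± 0.07 on the log2 scale in juveniles (adjusted p = 1.46e-06) and -0.63 ± 0.07 at 6 months (adjusted p = 7.78e-08). EFNB3 spanned 4.67 to 7.79 FPKM (median 5.59) in unoperated 5-week eyes, against 3.61, 3.6 and 2.91 FPKM at 5 weeks and 3.81, 2.94 and 5.18 FPKM at 6.5 weeks in operated ones, an overlap of 1 library (-0.59 ± 0.15, adjusted p = 0.00282). At 6 months it spanned 2.94 to 4.35 FPKM (median 3.59) in unoperated and 1.71 to 4.39 FPKM (median 2.54) in operated eyes, with 1 operated library at the top of both groups (-0.42 ± 0.15, adjusted p = 0.0236). The 6-month call was lost without operated replicate 2 (adjusted p = 0.0765), with median-ratio scaling (0.0753), with lens and retina levels as covariates (0.0593) and without the libraries high in CRYAA (0.0695). EFNB2, the ligand of arterial endothelium, was not called (-0.12 ± 0.07 at 6 months and -0.12 ± 0.07 in juveniles). With equal totals it was called lower at both ages (adjusted p = 0.00666 and 0.0171). Without operated 5-week replicate 1 it was called lower in juveniles (-0.18, adjusted p = 0.0496).

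The EphB receptors did not move together. EPHB1 spanned 1.82 to 3.6 FPKM (median 2.44) in unoperated and 0.96 to 1.53 FPKM (median 1.12) in operated 6-month eyes, without overlap (-0.82 ± 0.13, adjusted p = 1.77e-05). In juveniles the values were 1.32 to 2.12 FPKM (median 1.73) in unoperated eyes and 1.14, 1.32 and 1.01 FPKM at 5 weeks and 1.91, 1.58 and 1.03 FPKM at 6.5 weeks in operated eyes, which overlapped (-0.27 ± 0.13, adjusted p = 0.108). EPHB4, the receptor of EFNB2 on venous endothelium, was higher in juveniles (0.26 ± 0.07, adjusted p = 0.00586). This call was lost with equal totals (0.13, adjusted p = 0.119), with operated 5-week libraries alone (adjusted p = 0.0765) and without the libraries high in CRYAA (adjusted p = 0.168). EPHB2 and EPHB3 were not called at either age.

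**Figure D3:**
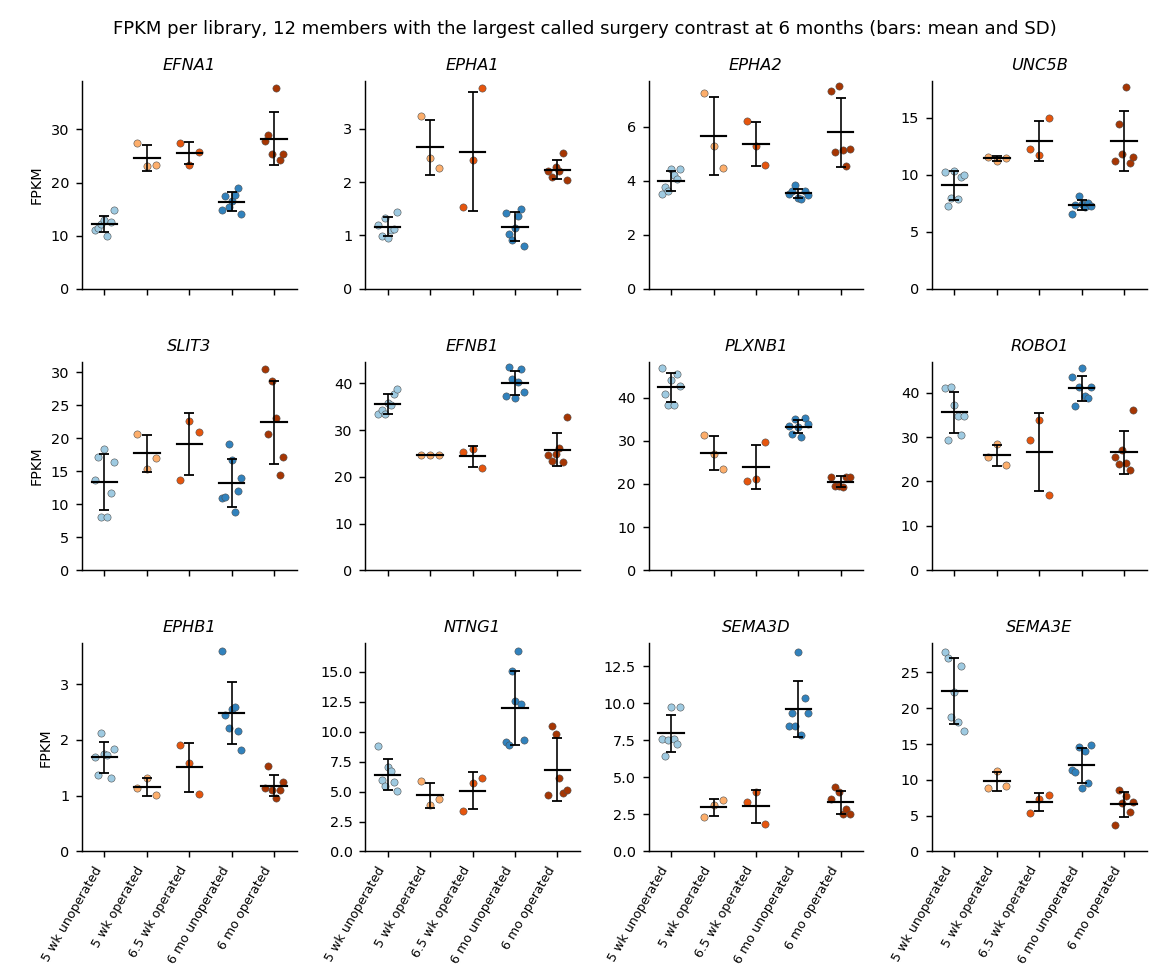
FPKM per library of the 12 members with the largest called surgery contrast at 6 months, in the 5 groups, with the mean and SD as black bars. EPHA1 is among them as a description with no test, since its listing depended on its operated level. Each point is a library. EFNA1, EPHA2 and UNC5B are higher in operated eyes, and EFNB1, PLXNB1, SEMA3D and SEMA3E lower, without overlap at either age.

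SEMA3D, SEMA3E and SEMA3A, 3 of the class 3 semaphorins, gave the largest called contrasts of the members, all downward. SEMA3D, a secreted ligand of neuropilins, spanned 7.87 to 13.5 FPKM (median 9.35) in unoperated and 2.53 to 4.38 FPKM (median 3.2) in operated 6-month eyes. Juvenile eyes had 6.44 to 9.71 FPKM (median 7.56) without surgery and 2.32, 3.15 and 3.45 FPKM at 5 weeks and 3.31, 4 and 1.84 FPKM at 6.5 weeks with it. No libraries overlapped at either age, and SEMA3D was 2.67-fold lower at 6 months (-1.42 ± 0.15, adjusted p = 7.65e-08) and 2.44-fold lower in juveniles (-1.29 ± 0.15, adjusted p = 4.1e-07). SEMA3E, the PLXND1 ligand known for repelling vessels, spanned 16.9 to 27.9 FPKM (median 22.2) in unoperated 5-week eyes, against 8.87, 11.3 and 9.16 FPKM at 5 weeks and 5.44, 7.36 and 7.83 FPKM at 6.5 weeks in operated ones. At 6 months it spanned 8.93 to 14.9 FPKM (median 11.3) without and 3.73 to 8.64 FPKM (median 6.9) with surgery, again with no overlap. Its contrast was -1.38 ± 0.16 in juveniles (adjusted p = 3.73e-07) and -0.84 ± 0.16 at 6 months (adjusted p = 0.000183).

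SEMA3A, the class 3 semaphorin that repels sensory and sympathetic axons through NRP1, spanned 6.29 to 13.6 FPKM (median 6.9) in unoperated 5-week eyes and 5.26, 3.56 and 3.26 FPKM at 5 weeks and 2.01, 3.08 and 1.74 FPKM at 6.5 weeks in operated juveniles. The groups did not overlap, and the contrast was -1.26 ± 0.19 (adjusted p = 9.33e-06). At 6 months unoperated eyes spanned 3.68 to 5.4 FPKM (median 4.48) and operated eyes 2.42 to 6.54 FPKM (median 3.67), with overlap (-0.18 ± 0.19, adjusted p = 0.452). The highest SEMA3A values of the unoperated 5-week, operated 5-week and operated 6-month groups (13.6, 5.26 and 6.54 FPKM) were each in a library above 1000 FPKM of CRYAA. Without the libraries high in CRYAA the juvenile call held and SEMA3A was called lower at 6 months too (-0.42, adjusted p = 0.0368). With lens and retina levels as covariates the juvenile call held.

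SEMA3F and SEMA3G, both ligands that act through NRP2, were higher at 6 months by 0.24 ± 0.09 (adjusted p = 0.0392) and 0.45 ± 0.14 (adjusted p = 0.0117). Both calls were lost with equal totals (adjusted p = 0.353 and 0.0708). The SEMA3F call was also lost without any 1 of 7 libraries, 4 unoperated and 3 operated, with adjusted p up to 0.115. In juveniles neither was called (-0.12 ± 0.09 and 0.22 ± 0.14), but with equal totals SEMA3F was called lower there (-0.25, adjusted p = 0.0218). SEMA3B and SEMA3C were called at neither age.

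Among the membrane-bound semaphorins, SEMA4B, SEMA4C and SEMA7A rose at both ages. SEMA4B rose by 0.51 ± 0.08 in juveniles (adjusted p = 1.88e-05) and 0.40 ± 0.08 at 6 months (adjusted p = 0.000284), with no overlap at either age. SEMA7A, a membrane-anchored ligand of PLXNC1 and integrins with known roles in inflammation, rose by 0.49 ± 0.08 (adjusted p = 5.57e-05) and 0.54 ± 0.08 (adjusted p = 1.37e-05). SEMA4C, a ligand of PLXNB2, was at 8.43 to 11.6 FPKM (median 9.56) in unoperated 5-week eyes and at 17.2, 17.4 and 11.3 FPKM at 5 weeks and 13.8, 13.8 and 17.3 FPKM at 6.5 weeks in operated juveniles. Of the operated juvenile libraries 5 lay above the unoperated range and 1 inside it (0.63 ± 0.09, adjusted p = 7.66e-06). Its smaller contrast at 6 months (0.23 ± 0.09, adjusted p = 0.0403) was lost with equal totals (0.09, adjusted p = 0.403), without the libraries high in CRYAA (adjusted p = 0.124) and without any 1 of 9 libraries, with adjusted p up to 0.086.

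Lower were SEMA6C at both ages (-0.27 ± 0.08, adjusted p = 0.00852, and -0.22 ± 0.08, adjusted p = 0.028) and SEMA5B at 6 months. SEMA5B spanned 2.11 to 3.75 FPKM (median 2.53) in unoperated and 1.34 to 2.15 FPKM (median 1.68) in operated 6-month eyes, a slight overlap (-0.50 ± 0.13, adjusted p = 0.00323). SEMA6C lost its 6-month call with median-ratio and upper-quartile scaling (adjusted p = 0.226 and 0.0863), and both its calls without the libraries high in CRYAA (0.176 at 6 months and 0.0705 in juveniles). Its juvenile call was also lost with operated 5-week libraries alone (0.0609) and without the late-numbered ones (0.0779), and its 6-month call without any 1 of 4 libraries. SEMA5A (-0.31 ± 0.11, adjusted p = 0.0277) and SEMA4G (-0.54 ± 0.22, adjusted p = 0.0449) were also lower at 6 months. SEMA4G lost that call without any 1 of 11 of the 13 libraries, with adjusted p up to 0.1, and in 5 alternative settings. SEMA5A lost its call without any 1 of 4 libraries (adjusted p up to 0.0686), with median-ratio scaling (-0.21, adjusted p = 0.17), with upper-quartile scaling (0.0745) and without the libraries high in CRYAA (0.143). SEMA6A was lower in juveniles (-0.30 ± 0.11, adjusted p = 0.0298). With operated 5-week libraries alone this was -0.17 (adjusted p = 0.379), and the call was also lost in 3 other settings and without any 1 of 5 libraries. SEMA4D, the main ligand of PLXNB1, and SEMA4F were called at neither age. SEMA4A had -1.26 ± 0.59 at 6 months (adjusted p = 0.0852), with 2 operated libraries listed at 0, and was called lower without the libraries high in CRYAA (adjusted p = 0.0194).

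**Figure D4:**
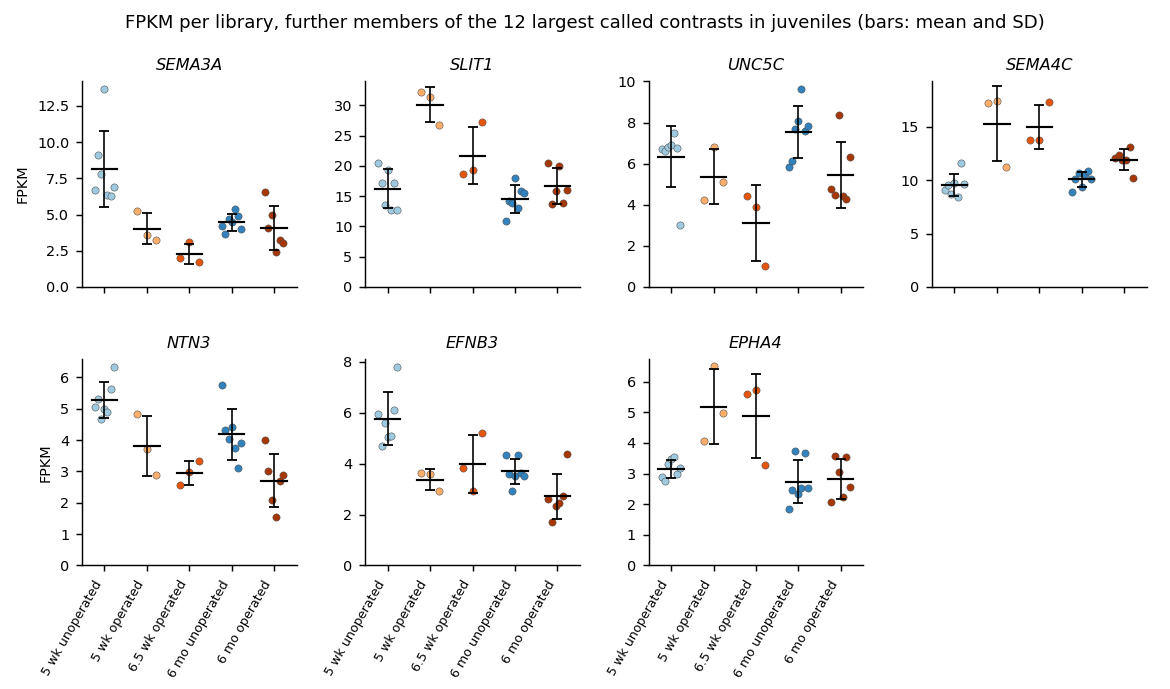
FPKM per library of 7 further members that belong to the 12 largest called surgery contrasts in juveniles, in the 5 groups, with the mean and SD as black bars. SEMA3A, UNC5C, NTN3 and EFNB3 are lower and SLIT1, SEMA4C and EPHA4 higher in operated juveniles. In SEMA3A 1 unoperated 5-week library stands at 13.6 FPKM, above the others of its group.

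Of the 9 plexins, 2 were higher and 6 lower at 6 months, beside 16.0% higher and 30.1% lower among all genes. In juveniles 1 was higher and 2 lower, beside 16.5% and 20.8% of all genes. PLXNB1, the SEMA4D receptor, spanned 38.2 to 46.9 FPKM (median 42.7) in unoperated 5-week eyes and 31.2, 27 and 23.4 FPKM at 5 weeks and 20.7, 21.1 and 29.7 FPKM at 6.5 weeks in operated juveniles. At 6 months it spanned 30.9 to 35.2 FPKM (median 33.3) without and 19.2 to 21.6 FPKM (median 20.6) with surgery. Operated libraries were lower with no overlap at both ages, by -0.73 ± 0.08 (adjusted p = 5.62e-08) and -0.69 ± 0.08 (adjusted p = 1.23e-07). PLXNB2, a receptor of several class 4 semaphorins, fell by 0.25 ± 0.07 in juveniles (adjusted p = 0.00503) and by 0.28 ± 0.07 at 6 months (adjusted p = 0.0016). Its juvenile call was lost with operated 5-week libraries alone (adjusted p = 0.0562) and without the late-numbered 5-week libraries (0.0709).

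PLXND1, the SEMA3E receptor and a known endothelial gene, was higher in operated eyes while its ligand was lower. Its contrast was 0.29 ± 0.07 in juveniles (adjusted p = 0.00357) and 0.18 ± 0.07 at 6 months (adjusted p = 0.0488). With equal totals the contrasts were 0.16 (adjusted p = 0.0701) and 0.03 (adjusted p = 0.703), and the 6-month call was lost without any 1 of 10 of the 13 libraries. Both calls were lost without the libraries high in CRYAA (adjusted p = 0.0939 in juveniles and 0.0539 at 6 months). PLXNA2 was higher at 6 months (0.42 ± 0.10, adjusted p = 0.00165), with no overlap. PLXNA1 and PLXNA4, co-receptors of NRP1 and NRP2, were lower at 6 months. PLXNA1 spanned 7.22 to 10.5 FPKM (median 8.44) in unoperated and 5.87 to 7.6 FPKM (median 6.71) in operated eyes (-0.33 ± 0.10, adjusted p = 0.0115), a call lost with median-ratio scaling (-0.24, adjusted p = 0.075). PLXNA4 spanned 1.8 to 2.75 FPKM (median 2.38) and 1.26 to 2.04 FPKM (median 1.51) (-0.46 ± 0.13, adjusted p = 0.00459). Inside the unoperated range lay 1 operated library for PLXNA1 and 2 for PLXNA4. The calls of PLXNB3 (-0.30 ± 0.12, adjusted p = 0.0345) and PLXNC1 (-0.41 ± 0.17, adjusted p = 0.0468) were lost without any 1 of 5 and of 11 of the 13 libraries, and under 5 alternative settings each. PLXNA3 was called at neither age.

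The neuropilins differed from each other. NRP1, the receptor of SEMA3A, was higher in operated juveniles than in every unoperated library (27.96 ± 1.89 FPKM, SD, n = 7, against 39.3 ± 4.98 FPKM, n = 6), by 0.48 ± 0.10 (adjusted p = 0.000871). At 6 months the contrast was 0.30 ± 0.10 (adjusted p = 0.0206). That call was lost with equal totals (0.16, adjusted p = 0.235), with only the groups compared in the fit (adjusted p = 0.051), and on leaving out unoperated replicate 1 (adjusted p = 0.0541) or either operated replicate 2 or 4 (0.0566 and 0.0535). NRP2 was lower at 6 months, 95.1 ± 9.75 FPKM without surgery (SD, n = 7) and 72.8 ± 15.4 FPKM with it (n = 6; -0.40 ± 0.11, adjusted p = 0.00426). In juveniles it was 77.4 ± 5.42 FPKM without and 90.6 ± 19.6 FPKM with surgery (0.20 ± 0.11, adjusted p = 0.151). The 4 listed NRP2 transcripts, X1 to X4, all had a lower mean in operated than in unoperated 6-month eyes, and the most abundant was at 53.1 ± 4.84 and 40.2 ± 7.26 FPKM.

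In the SLIT and ROBO pair of families, the SLIT calls were upward and the ROBO call downward. SLIT3, a secreted repellent also made by vessel walls and muscle, spanned 8.75 to 19.1 FPKM (median 12.1) in unoperated and 14.5 to 30.4 FPKM (median 21.8) in operated 6-month eyes. The groups overlapped, and the contrast was 0.73 ± 0.21 (adjusted p = 0.00713), beside 0.49 ± 0.21 in juveniles (adjusted p = 0.0715). SLIT1 spanned 12.7 to 20.6 FPKM (median 17.2) in unoperated 5-week eyes and 32.2, 31.4 and 26.8 FPKM at 5 weeks and 18.6, 19.4 and 27.2 FPKM at 6.5 weeks in operated juveniles. The 3 operated 5-week libraries lay above every unoperated one and 2 of the 6.5-week libraries did not (0.65 ± 0.13, adjusted p = 0.000352). With operated 6.5-week libraries alone the call was lost (0.41, adjusted p = 0.0537). At 6 months SLIT1 was not called (0.19 ± 0.13, adjusted p = 0.243), and SLIT2 was called at neither age.

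ROBO1, the SLIT receptor of neurons and epithelia, spanned 36.95 to 45.5 FPKM (median 41.2) in unoperated and 22.5 to 36.04 FPKM (median 24.8) in operated 6-month eyes, without overlap. Juvenile eyes had 29.4 to 41.2 FPKM (median 34.9) without surgery and 25.5, 28.5 and 23.7 FPKM at 5 weeks and 29.4, 33.8 and 16.9 FPKM at 6.5 weeks with it, with an overlap. The contrast was -0.63 ± 0.12 at 6 months (adjusted p = 0.000216) and -0.45 ± 0.12 in juveniles (adjusted p = 0.00587). The 3 transcripts listed for ROBO1 differed unequally at 6 months. Transcript X8 went from 20.3 ± 2.32 to 9.86 ± 3.71 FPKM, transcript X3 from 16.2 ± 2.302 to 12.9 ± 3.66 FPKM and transcript X9 from 4.55 ± 1.17 to 3.797 ± 2.66 FPKM (mean ± SD, n = 7 and 6). On transcript X3, the highest on average, the 6-month contrast was -0.34 (adjusted p = 0.0526). The juvenile call was lost without the libraries high in CRYAA (-0.52, adjusted p = 0.0663). ROBO4, the endothelial family member, was called at neither age (0.18 ± 0.11 and 0.04 ± 0.11). ROBO2 had -1.10 ± 0.61 at 6 months (adjusted p = 0.141) and was listed at 0 in 3 juvenile libraries. With only the 6-month groups in the fit the ROBO2 call passed (adjusted p = 0.000938).

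Of the netrin group, NTN3 and NTNG1 were lower and the receptor UNC5B higher. UNC5B, a netrin receptor known from endothelial tip cells and macrophages, spanned 6.6 to 8.14 FPKM (median 7.37) in unoperated and 11 to 17.7 FPKM (median 11.7) in operated 6-month eyes. Juvenile eyes had 7.24 to 10.3 FPKM (median 9.83) without and 11.6, 11.2 and 11.5 FPKM at 5 weeks and 12.3, 11.7 and 14.97 FPKM at 6.5 weeks with surgery. Operated libraries were higher with no overlap at both ages, by 0.76 ± 0.10 at 6 months (adjusted p = 2.03e-06) and 0.41 ± 0.10 in juveniles (adjusted p = 0.00237). The juvenile call was lost with operated 5-week libraries alone (0.33, adjusted p = 0.0576) and without the libraries high in CRYAA (0.37, adjusted p = 0.067). UNC5C spanned 3.03 to 7.47 FPKM (median 6.74) in unoperated 5-week eyes and 4.21, 6.82 and 5.09 FPKM at 5 weeks and 4.43, 3.91 and 1 FPKM at 6.5 weeks in operated juveniles, with overlap (-0.63 ± 0.23, adjusted p = 0.0329). This call was lost without any 1 of 9 libraries, with adjusted p up to 0.147 (without the third 6.5-week library), with operated 5-week libraries alone (-0.20, adjusted p = 0.661), with only the groups compared (0.0924) and without the libraries high in CRYAA (0.111).

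NTN3, a secreted netrin, spanned 4.68 to 6.34 FPKM (median 5.06) in unoperated 5-week eyes and 4.83, 3.7 and 2.9 FPKM at 5 weeks and 2.56, 2.99 and 3.32 FPKM at 6.5 weeks in operated juveniles. At 6 months it spanned 3.12 to 5.76 FPKM (median 4.04) without and 1.56 to 3.99 FPKM (median 2.8) with surgery. At each age 1 operated library lay inside the unoperated range, with contrasts of -0.59 ± 0.15 (adjusted p = 0.00264) and -0.57 ± 0.15 (adjusted p = 0.00277). The juvenile call was lost with operated 5-week libraries alone (-0.44, adjusted p = 0.0809). NTNG1, a membrane-anchored netrin that binds the NGL adhesion proteins and not DCC, spanned 8.89 to 16.7 FPKM (median 12.3) in unoperated and 4.67 to 10.5 FPKM (median 5.63) in operated 6-month eyes. Of the operated libraries 2 lay inside the unoperated range, and the contrast was -0.80 ± 0.19 (adjusted p = 0.00167), beside -0.37 ± 0.19 in juveniles (adjusted p = 0.138). The most abundant netrin, NTN4, did not pass the test at either age (0.08 ± 0.08 and 0.19 ± 0.08), nor did NTN1 or NTNG2. In juveniles NTN4 was called higher with median-ratio scaling (adjusted p = 0.041), operated 6.5-week libraries alone (0.0348) or without unoperated replicate 3 (0.0192). NTNG2 was called lower at 6 months with equal totals (0.0141), with lens and retina covariates (0.0383) and without unoperated replicate 4 (0.047) or operated replicate 5 (0.0039). NTN1 was called lower at 6 months without the libraries high in CRYAA (0.0131).

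Cell type markers moved along with these contrasts. Summed endothelial markers (10 of 11 measured) spanned 172 to 208 FPKM in unoperated and 227 to 376 FPKM in operated 6-month eyes, and 165 to 194 against 288 to 406 FPKM in juveniles. Of these, 7 were higher and 1 lower at 6 months, and 6 higher and 1 lower in juveniles. Macrophage markers rose in 9 of 9 at both ages, from sums of 91.8 to 256 FPKM to 300.7 to 767 FPKM at 6 months, and neutrophil markers in 3 of 3. Cell cycle genes rose in 9 of 9 at 6 months and 8 of 9 in juveniles, and 7 of the 9 differed between the ages in their surgery effect. Of the 11 ciliary and iris epithelium markers 8 fell and 1 rose at both ages, and pigment cell markers fell in 8 of 8 at 6 months and 7 of 8 in juveniles. Of 6 smooth muscle markers 5 fell at both ages and 1 rose in juveniles. Of 10 Schwann cell and nerve markers, 5 fell at 6 months, and 2 fell and 1 rose in juveniles. The part of cell composition in the members' contrasts was not tested.

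Surgery effects at 6 months and in juveniles were compared by an interaction term. SEMA3A alone was called (1.08 ± 0.26, adjusted p = 0.0422), 1 of 57 members beside 1.09% of all genes. An unadjusted p under 0.05 was seen for 14 members, and the share of all genes under that limit was not counted. The call was lost in 6 settings and without any 1 of 17 of the 26 libraries. Without the libraries high in CRYAA the difference was 0.76 (adjusted p = 0.295), and on the most abundant SEMA3A transcript 0.68 (adjusted p = 0.417). NRP2 was next, at -0.60 ± 0.15 (adjusted p = 0.055), followed by SEMA4C (-0.39 ± 0.13, adjusted p = 0.168), SEMA6A (0.46 ± 0.15, adjusted p = 0.172) and EPHB1 (-0.55 ± 0.18, adjusted p = 0.176). NRP2 was called without the third 6.5-week library, without the third unoperated or the third or sixth operated 6-month library, and on its most abundant transcript (adjusted p = 0.00746 to 0.049). SEMA4C was called without the late-numbered 5-week libraries (-0.56, adjusted p = 0.00887). For the other members listed above as called at 1 age, a difference between ages was therefore not shown.

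Age was compared among unoperated eyes, 6 months against 5 weeks. Of the members 5 were higher and 13 lower at 6 months, beside 11.3% higher, 9.45% lower and 20.8% in all among all genes. The members' median was -0.09 and that of all genes 0.04. Marker lists moved with age as well. Fibroblast markers summed to 4905 to 5566 FPKM at 5 weeks and 2768 to 3296 FPKM at 6 months, with 4 of 7 lower and 1 higher, and cell cycle genes were lower in 8 of 9. Higher at 6 months were 4 of 10 Schwann cell and nerve, 4 of 9 macrophage and 3 of 6 smooth muscle markers. Lower were 3 of 8 pigment cell and 3 of 10 endothelial markers, while 1 endothelial marker was higher. Their part in the members' contrasts was not tested. NTNG1, already described above, had the largest rise, at 5.07 to 8.82 FPKM (median 5.95) in 5-week and 8.89 to 16.7 FPKM (median 12.3) in 6-month eyes. The ages did not overlap (0.83 ± 0.19, adjusted p = 0.0026). SEMA5B, a transmembrane repellent, was at 1.12 to 1.85 FPKM (median 1.47) and 2.11 to 3.75 FPKM (median 2.53), also without overlap (0.71 ± 0.13, adjusted p = 0.000361). NTN4 was at 35.5 to 52.3 FPKM (median 43.02) and 46.8 to 68.3 FPKM (median 61.3) with a small overlap (0.47 ± 0.08, adjusted p = 0.000143). EPHB1 (0.44 ± 0.12, adjusted p = 0.0141) and EFNA1 (0.42 ± 0.09, adjusted p = 0.00227) were the other 2 that rose.

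The largest called decreases with age were those of SEMA3E, SEMA3A, EFNA5 and SEMA6A. SEMA3E was at 16.9 to 27.9 FPKM (median 22.2) in unoperated 5-week eyes and at 8.93 to 14.9 FPKM (median 11.3) in unoperated 6-month eyes, without overlap (-0.87 ± 0.16, adjusted p = 0.000407). The ages did not overlap for SEMA3A either, at 6.29 to 13.6 against 3.68 to 5.4 FPKM (-0.75 ± 0.18, adjusted p = 0.00425). EFNA5, a ligand of EphA receptors with known roles in retinal mapping and in the lens, was at 17.1 to 27.97 FPKM (median 22.2) and 10.6 to 15.5 FPKM (median 14.1), with no overlap (-0.72 ± 0.12, adjusted p = 0.000139). SEMA6A, which binds PLXNA2 and PLXNA4, was at 7.34 to 9.43 FPKM (median 8.3) and 4.17 to 6.91 FPKM (median 4.87), again with no overlap (-0.64 ± 0.10, adjusted p = 0.000109). EFNB3 fell by 0.57 ± 0.14 (adjusted p = 0.00584). SEMA4F was lower at 6 months, 2.53 to 3.87 FPKM (median 3.07) against 3.74 to 5.61 FPKM (median 5.23), with a small overlap (-0.55 ± 0.13, adjusted p = 0.00463). Smaller decreases were called for PLXNB1, SEMA3F, SLIT2, EPHB3, SEMA7A, PLXNA2 and UNC5B (-0.34 to -0.27).

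No overlap between the ages was seen for 2 higher members (NTNG1 and SEMA5B) and 8 lower ones (EFNA5, EFNB3, EPHB3, PLXNB1, SEMA3A, SEMA3E, SEMA3F and SEMA6A), beside 4.26% and 3.97% of all genes. Calls held in every setting that tested the member, and without any 1 library, for 7 members. These were EFNA1, EFNA5, NTN4, PLXNB1, SEMA3E, SEMA5B and SEMA6A, of which SEMA5B was not in the setting limited to a mean of at least 5 FPKM. Without the 8 libraries high in CRYAA, 4 of them in the unoperated 5-week group, 8 members were called in place of 18, beside 4.6% in place of 20.8% of all genes. The decrease of SEMA3A was then -0.59 (adjusted p = 0.0523), that of SEMA7A -0.19 (adjusted p = 0.368) and the rise of NTNG1 0.73 (adjusted p = 0.107). The calls of SLIT2 and UNC5B were lost without any 1 of 11 and of 10 of the 14 libraries. PLXNA2 lost its call on leaving out 5-week replicate 1 or 4 or 6-month replicate 5 (adjusted p = 0.0525, 0.0568 and 0.0534).

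Among operated eyes, 6 months against the juvenile ages, 2 members were higher and 9 lower, beside 5.87% higher, 9.76% lower and 15.6% in all among all genes. Without overlap between the ages, 1 member was higher (NTN4) and 1 lower (PLXNA1), beside 1.31% and 3.46% of all genes. NTN4 was higher (0.37 ± 0.08, adjusted p = 0.00397), at 59.7 to 66.3 FPKM (median 62.04) in operated 6-month eyes against 41.7, 45.7 and 48.5 FPKM at 5 weeks and 50.6, 54.7 and 49.5 FPKM at 6.5 weeks. SEMA5B was higher too (0.50 ± 0.14, adjusted p = 0.015). EPHA4 (-0.72 ± 0.16, adjusted p = 0.003) and SLIT1 (-0.61 ± 0.14, adjusted p = 0.00363) were lower, both at levels given above. SEMA4F was lower, at 2.26 to 5.05 FPKM (median 3.26) against 5.55, 4.7 and 5.14 FPKM at 5 weeks and 5.08, 6.31 and 5.46 FPKM at 6.5 weeks (-0.56 ± 0.14, adjusted p = 0.00877). The operated groups of SEMA4F overlapped by 1 older library.

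The plexins PLXNA1, PLXNA4, PLXNB3 and PLXNB1 were lower in operated 6-month than in operated juvenile eyes. PLXNA1 was at 10.9, 8.15 and 8.8 FPKM at 5 weeks and 7.67, 12.8 and 9.84 FPKM at 6.5 weeks, above all 6 operated 6-month libraries (-0.47 ± 0.11, adjusted p = 0.00414). PLXNA4 was at 1.95, 2.16 and 2.59 FPKM at 5 weeks and 1.67, 2.75 and 2.37 FPKM at 6.5 weeks (-0.42 ± 0.13, adjusted p = 0.0325), and PLXNB3 at 1.09, 1.27 and 1.36 FPKM at 5 weeks and 1.5, 1.67 and 1.66 FPKM at 6.5 weeks against 0.55 to 1.41 FPKM (-0.39 ± 0.12, adjusted p = 0.0291). Both overlapped the 6-month libraries. PLXNB1 (-0.29 ± 0.08, adjusted p = 0.0137), SEMA4C (-0.32 ± 0.10, adjusted p = 0.0258) and SEMA7A (-0.28 ± 0.09, adjusted p = 0.0316) were the remaining calls. EPHA4, NTN4 and SLIT1 held theirs in every setting that tested them and without any 1 library. EPHA4 was not in the setting limited to a mean of at least 5 FPKM. PLXNA4, PLXNB3, SEMA4C and SEMA7A lost theirs without any 1 of 4 to 8 of the 12 libraries, with adjusted p up to 0.103. Without the libraries high in CRYAA 3 members were called, beside 10% of all genes. With equal totals 2 members were higher and 16 lower, beside 2.54% and 15.4% of all genes, whose median was then -0.09. In operated eyes 6 of 7 fibroblast markers were lower at 6 months, and 1 was higher.

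**Figure D5:**
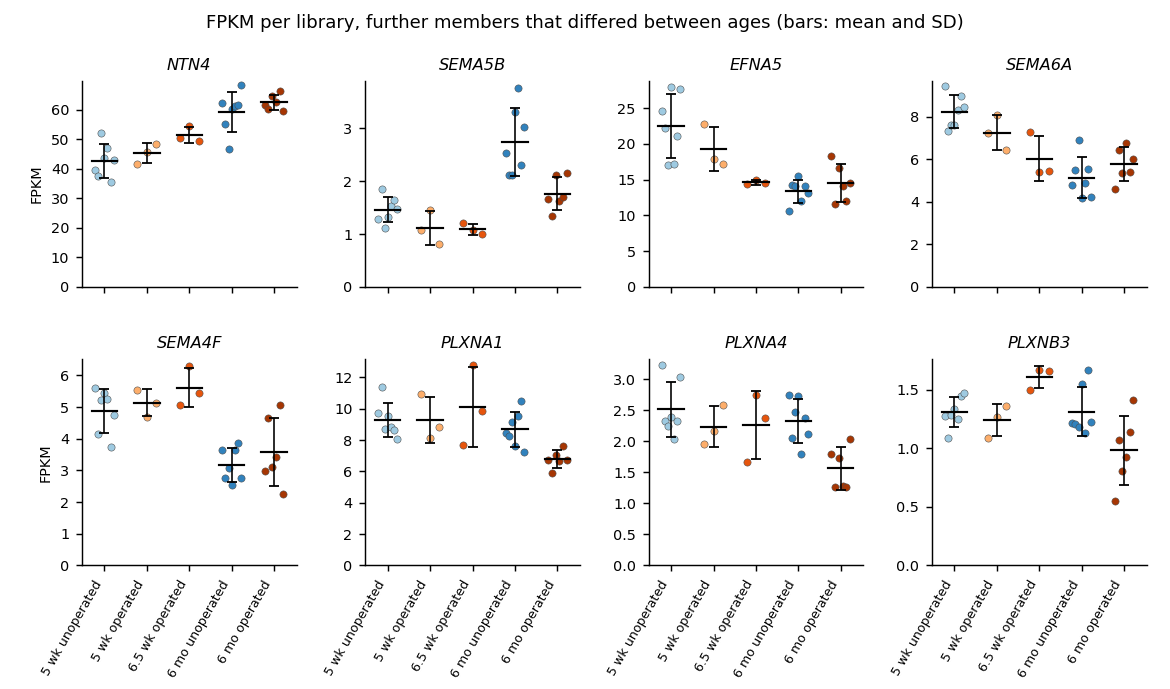
FPKM per library of 8 further members that were called between ages, in the 5 groups, with the mean and SD as black bars. NTN4 and SEMA5B stand higher at 6 months, and EFNA5, SEMA6A and SEMA4F lower, in unoperated eyes. PLXNA1, PLXNA4 and PLXNB3 are lowest in operated 6-month eyes.

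Operated eyes of 6.5 and 5 weeks were also compared, with 3 libraries each. Of the members 0 were called by limma, beside 0.0154% of all genes (0.00771% higher and 0.00771% lower). Another 6 had an unadjusted p under 0.05, a limit for which the share of all genes was not counted. The lowest of these was SEMA3A, with 2.01, 3.08 and 1.74 FPKM at 6.5 weeks and 5.26, 3.56 and 3.26 FPKM at 5 weeks (-0.71 ± 0.27, adjusted p = 0.388). The others were UNC5C (-0.85 ± 0.33), SEMA4D (-0.52 ± 0.21), SLIT1 (-0.48 ± 0.19), NRP2 (0.38 ± 0.16) and EFNA5 (-0.38 ± 0.18), with adjusted p from 0.389 to 0.47. The libraries of the ages did not overlap for 4 higher members (NTN4, PLXNB3, SEMA3G and UNC5B) and 3 lower ones (EFNA5, SEMA3A and SEMA3E), beside 6.79% and 4.57% of all genes. Taken alone against unoperated 5-week eyes, the operated 5-week libraries called 17 members, beside 24.8% of all genes, and the operated 6.5-week libraries 26, beside 32.6%.

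Outside the families, a list of 107 co-receptors, cytoplasmic effectors and other guidance ligands was counted, of which 89 were measured. At 6 months 21 were higher and 24 lower in operated eyes, beside 16.0% higher, 30.1% lower and 46.1% in all among all genes. In juveniles 21 were higher and 17 lower, beside 16.5% higher, 20.8% lower and 37.3% in all. Their median log2 fold changes were -0.06 and -0.02. RHOB, a small GTPase of the actin machinery, had the smallest p at both ages (1.31 ± 0.10 at 6 months, adjusted p = 4.63e-10, and 1.30 ± 0.10 in juveniles, adjusted p = 6.19e-10). CXCL12, a chemokine that guides axons and leukocytes, rose at 6 months (0.67 ± 0.13, adjusted p = 0.000247). FLRT3, a ligand of UNC5 receptors and partner of ROBO1, went from 16.2 ± 1.23 (SD, n = 7) to 8.35 ± 1.197 FPKM (n = 6) at 6 months (-0.92 ± 0.10, adjusted p = 9.01e-08) and fell in juveniles too (-0.78 ± 0.10, adjusted p = 1.48e-06). DPYSL3, an intracellular mediator of semaphorin signals, fell at 6 months (-0.80 ± 0.13, adjusted p = 3.06e-05), as did FARP2, which binds plexins (-0.62 ± 0.08, adjusted p = 1.25e-06). MET, a partner of plexin-B receptors, fell at both ages (-0.91 ± 0.16, adjusted p = 5.48e-05, and -0.90 ± 0.16, adjusted p = 7.09e-05). RGMB, a ligand of neogenin, was the single gene of the list whose surgery effects differed between ages (-0.68 ± 0.11, adjusted p = 0.00188). It rose in juveniles (0.67 ± 0.08, adjusted p = 5.2e-07) and stood at 11.9 ± 1.11 and 11.8 ± 1.18 FPKM without and with surgery at 6 months.

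Some members are neighbours in the genome. In the RefSeq gene order of mOryCun1.1, in which 57 of 57 members were matched, SEMA3D, SEMA3A and SEMA3E follow each other with 0 protein-coding genes between. These were the 3 members with the largest decreases in operated juveniles, and SEMA3D and SEMA3E had the largest called ones at 6 months. EFNA1, EFNA3 and EFNA4 are adjacent as well, and of these EFNA1 alone was called with surgery. ROBO1 and ROBO2 are adjacent, and SEMA3B and SEMA3F are separated by 3 protein-coding genes. Which transcripts share reads between adjacent or related genes was not tested.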

How the data were processed

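Per the labels, total RNA was sequenced on the DNBseq platform. The deposited table gives FPKM per RefSeq transcript and library, as the file header names them. RSEM 1.2.12, Bowtie2 2.2.5, HISAT2 2.0.4 and HISAT stand in the submitters' processing notes with no role given, and the sources used here give no genome build. For each of 16725 transcripts, 1 or more of 4 groups has every library above 1 FPKM, with a smallest group minimum of 1.01. Without read counts the sequencing depth is unknown, and counting intervals cannot be formed. FPKM of a library sum to between 412936 and 438564 in unoperated 5-week eyes and between 476369 and 504202 in operated 6-month eyes.

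FPKM were summed per gene symbol, 10 members having more than 1 transcript. With limma 3.58.1 in R 4.3.3, 1 mean for each of the 5 groups was fitted over the 26 libraries on log2(FPKM + 0.5), with limma's trend and robust options. A filter of 1 FPKM in at least 3 libraries removed 0 genes. Contrasts were tested two-sided and adjusted by Benjamini-Hochberg over all 12967 genes, and the code was checked on simulated data. The 23 cornea samples are not analysed here. The members and lists were chosen with earlier results of these data known. Any member could be named. Values by library were given for up to 12 called members with the largest contrast per surgery comparison and up to 8 per other comparison, of other pathway genes up to 5 per direction with the smallest p, and of markers up to the 4 most abundant per list, here given as counts and sums. Alternatives were the scaling, pseudocount, filter, transcript choice, samples fitted, moderation, lens and retina carryover, late-numbered libraries and each library left out. Late-numbered libraries are the 3 of 5 weeks whose label numbers follow those of the 6-month eyes. No sequences are shown, since none were given with the files.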

Additional observations from a re-analysis of the deposited data

Results flagged for a closer look

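Single libraries of 11 members stood far from the others of their group by Dixon's test, and SEMA4A by a listed 0. These were 12 of 171 tests of groups of 6 or 7 libraries, and chance flags about 1 in 20 groups. In unoperated 5-week eyes, SEMA3A was at 13.64 FPKM in replicate 4 against 6.29 to 9.14 FPKM in the others. SEMA3G was at 16.09 FPKM in replicate 2 (others 20.11 to 23.14), SEMA4A was listed at 0 in replicate 5 (others 4.17 to 6.51), SEMA4C was at 11.63 FPKM in replicate 6 (others 8.43 to 9.71) and UNC5C at 3.03 FPKM in replicate 7 (others 6.60 to 7.47). In unoperated 6-month eyes SEMA3C was at 36.89 FPKM in replicate 3 (others 21.97 to 27.66), and UNC50 at 38.28 FPKM in replicate 6 (others 33.35 to 35.09). In operated 6-month eyes EFNA1 was at 37.76 FPKM in replicate 4 (others 24.18 to 28.95), EFNB1 at 32.8 FPKM and ROBO1 at 36.04 FPKM in replicate 6 (others 23.24 to 26.21 and 22.51 to 27.18), and NTNG2 at 15.69 FPKM and SEMA7A at 15.3 FPKM in replicate 5 (others 5.52 to 8.12 and 11.25 to 12.68). EFNB1 and ROBO1, both lower in operated eyes, thus shared the operated library nearest to the unoperated range.

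The surgery effect on SEMA3A differed between the ages by 1.08 on the log2 scale, with an adjusted p of 0.0422 from limma's interaction term. The call was lost in 6 settings and without any 1 of 17 of the 26 libraries. Without the libraries above 1000 FPKM of CRYAA the difference was 0.76 (adjusted p = 0.295) and SEMA3A was called lower at 6 months as well (-0.42, adjusted p = 0.0368). SEMA3A was lower in 6 of 6 operated juvenile libraries than in every unoperated 5-week library, while operated and unoperated libraries overlapped at 6 months.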

How the results depend on the processing

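No contrast of a member changed sign in a called result under any setting run. Of 9189 repeated member results 8850 stayed called or not called as reported, and these include contrasts that were never called. A call was lost in 257 and gained in 82, and the gained ones are given above for some members only. Calls alone held in every setting that tested the member and without any 1 library for 18 of 31 at 6 months and 13 of 24 in juveniles, EPHA1 not counted. For age this was 7 of 18 without and 3 of 11 after surgery, and 0 of 1 for the difference of the surgery effects. Leaving out 1 library gave 24 to 30 called members at 6 months (32 as reported), 23 to 26 in juveniles (25), 15 to 20 for age without surgery (18), 7 to 11 for age after surgery (11) and 0 to 2 for the difference of the surgery effects (1). The 7 came without operated 5-week replicate 2 and the 2 without operated 6-month replicate 6. The share of all genes called without each single library was not counted. Without the libraries above 1000 FPKM of CRYAA, 8 members were called for age without surgery, beside 4.6% of all genes. For age after surgery 3 were called there, beside 10%, and 0 for the difference of surgery effects, beside 0.0231%. With libraries scaled to an equal sum the count for age after surgery was 18, beside 17.9% of all genes. It was 6 of the 40 members with a mean of at least 5 FPKM, beside 15.6% of such genes. With only the groups compared it was 4, beside 6.31% of all genes. The difference of surgery effects had 0 called members with equal sums, with the 5 FPKM filter and with lens and retina levels as covariates. The shares of tested genes called there were 1.1%, 0.698% and 0.763%. The cause of these shifts was not tested, apart from the fewer genes or libraries that some settings hold. No paired analysis was possible, because the labels give no pairing and the 26 iris libraries carry 26 different title numbers. The labels carry no replicate numbers, and the numbers here were given in accession order. Depth is unknown, so it is not known how far low members such as PLXNB3, EPHA1 and EPHB1 are limited by counting.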

Other observations

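Counted by role, 7 of 33 ligands were higher and 10 lower in operated eyes at 6 months, and 6 of 23 receptors were higher and 9 lower, beside 16.0% higher and 30.1% lower among all genes. In juveniles 5 ligands were higher and 9 lower, and 7 receptors were higher and 4 lower, beside 16.5% and 20.8% of all genes. The higher receptors include EPHA1, whose listing depended on its operated level. With age in unoperated eyes 4 ligands were higher and 9 lower, against 1 and 4 receptors, beside 11.3% and 9.45% of all genes. Whether these splits differ between ligands and receptors was not tested. Known ligand and receptor partners were not called in 1 common direction. EFNA1 and its receptor EPHA2 were both higher at both ages, while SEMA3E was lower and PLXND1 higher, and SEMA7A was higher while PLXNC1 was lower at 6 months (-0.41 ± 0.17). PLXNB1 was lower at both ages beside its ligand SEMA4D at 0.06 ± 0.14 at 6 months and 0.12 ± 0.14 in juveniles, neither of them called. The 6-month calls of PLXNC1 and PLXND1 were each lost on leaving out 1 of most single libraries, as given above.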
